A study of Mus musculus with 5 samples.

Results

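The genes described here are 10 repressors of adipogenesis, namely the secreted or membrane-bound ligands Dlk1, Wnt10b, Wnt5a and Wnt6 and the transcriptional regulators Gata2, Gata3, Foxo1, Nr2f2, Zfp521 and Hes1. They were chosen by name, with earlier results of these data known. All probe sets whose platform annotation gives 1 of these symbols and no other gene were taken, 25 out of 45037 on each array. C3H10T1/2 is a mouse mesenchymal cell line that can be turned into fat cells, and the cells of every group had been fully differentiated before treatment. The groups were butein for 6 h, sulfuretin for 6 h, the solvent DMSO for 6 h, resveratrol for 6 h, and a second DMSO group for 6 h, called DMSO1, that the labels name as the control of resveratrol. Each group is 1 array of total RNA from 1 cell line, so no difference below has an error from replicates, and no p-value within a comparison was possible. Doses are not stated in the labels. Butein and sulfuretin were set against DMSO and resveratrol against DMSO1, and the series description gives the search for factors for or against adipogenesis common to the compounds as the purpose.

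These repressors hold precursor cells back from becoming adipocytes, mostly by keeping the genes of the adipogenic regulators PPARgamma and C/EBPalpha low. Dlk1, also called Pref-1, marks preadipocytes and is shut down as they differentiate. Wnt10b and Wnt6 act through beta-catenin, whereas Wnt5a mainly signals without it. Gata2 and Gata3 bind the Pparg promoter, Foxo1 is a forkhead factor that insulin signalling expels from the nucleus and that acts against PPARgamma, Nr2f2 is the orphan nuclear receptor COUP-TFII, Zfp521 is a zinc finger protein that restrains the early B cell factor Ebf1 and favours the bone lineage, and Hes1 is the basic helix-loop-helix repressor switched on by Notch.

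None of these 10 genes reached a 2-fold difference with any of the 3 compounds on any of the 25 probe sets. Few probe sets did so on the whole array, 2.21% with butein, 0.242% with sulfuretin and 0.111% with resveratrol of those at the floor defined below. Dlk1 and Gata3 had no probe set at that floor on any array, so neither rose to it with a compound. A fall in them, or a rise that stayed under the floor, was not detectable. The largest difference among the 10 genes was in Foxo1 (NCBI gene 56458), which was 1.79-fold higher with butein on 1 of its 4 probe sets. The next in size was Zfp521 (NCBI gene 225207), 1.52-fold lower with butein on 1 of its 2 probe sets. With sulfuretin these 2 probe sets, 1416981_at of Foxo1 and 1451332_at of Zfp521, differed the same way but by less, against the same DMSO array. On the other probe sets of both genes the differences with butein and with sulfuretin were equal. The values depend on the control. With the arrays quantile normalized together and DMSO1 as control, the log2 difference of Foxo1 on 1416981_at was 0.31 with butein and 0.03 with sulfuretin. That of Zfp521 on 1451332_at turned to 0.15 with butein and 0.48 with sulfuretin. With resveratrol a lower Wnt5a, a lower Zfp521 and a higher Hes1 were all under 1.5-fold.

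Adipocyte markers were among the bright signals on every array. Adipoq, the adiponectin gene, read 6122 with butein, 6976 with sulfuretin and 7202 in DMSO, and 6134 with resveratrol and 6751 in DMSO1. Fabp4, the fatty acid binding protein gene, lay between 7338 and 9340 on the 5 arrays. Pparg read 416 with butein, 355 with sulfuretin and 462 in DMSO, and 481 with resveratrol and 602 in DMSO1. Cebpa read 114 with butein, 160 with sulfuretin and 158 in DMSO, and 332 with resveratrol and 378 in DMSO1. Over the 8 adipocyte markers with a probe set, the summed intensity ran from 17624 to 20033, and 7 of the 8 reached the floor on every array. Fibroblast and preadipocyte markers were present as well, 8 of 9 at the floor with sums from 8212 to 9530, led by Col3a1 and Fn1. Markers moved with the treatments too. All 7 counted adipocyte markers were lower with butein (median log2 difference -0.23) and with resveratrol (median -0.11), each by less than 1.5-fold, whereas 4 were higher and 3 lower with sulfuretin. Of all probe sets at the floor 35.0% were lower and 30.4% higher with butein, and 31.9% lower and 31.2% higher with resveratrol. The rest were exactly equal, which no counted adipocyte marker was. Of the 8 counted fibroblast markers 3 were higher and 5 lower with butein, and likewise with resveratrol. With sulfuretin 1 was higher, 6 were lower and 1 was equal. Among the lower ones the matrix gene Lum read 22.3 with butein and 45.1 with sulfuretin against 77.3 in DMSO, 3.46-fold lower with butein. Dcn read 59.5 with butein and 72.0 with sulfuretin against 104.6 in DMSO. The part of these markers in the results below was not tested. Of the markers of other cells at the floor there were 2 of 5 for bone and cartilage, 3 of 6 for muscle, 2 of 5 for macrophages (1 of 5 on the butein, sulfuretin and DMSO arrays) and 1 of 4 for endothelium. In these bulk cultures fewer cells of a type and less RNA per cell cannot be told apart.

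The floor, an intensity of 8.39, is the median over probe sets of the mean log2 intensity. A probe set was counted when its highest value over the 5 arrays reached the floor, and differences are of log2 intensities. Of the 25 probe sets 18 were counted, from 8 genes, and Dlk1 and Gata3 had none among them. The number at or above the floor was 14 on the butein array, 14 on the sulfuretin array and 13 on the DMSO array, against 17 on the resveratrol array and 18 on the DMSO1 array. The arrays of butein, sulfuretin and DMSO have a median probe set intensity of 6.85, while the median is 11.5 for resveratrol and 11.1 for DMSO1. Of the 26028 probe sets at the floor the median log2 difference of DMSO1 minus DMSO was 0.63, so levels are compared within each of these sets of arrays only. Many deposited values are also exactly shared, since the 45037 probe sets take 12800 distinct values on the butein array, 12509 on the sulfuretin array and 13405 on the DMSO array. Equal values on different arrays therefore show only that the deposited numbers coincide.

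**Figure D1:**
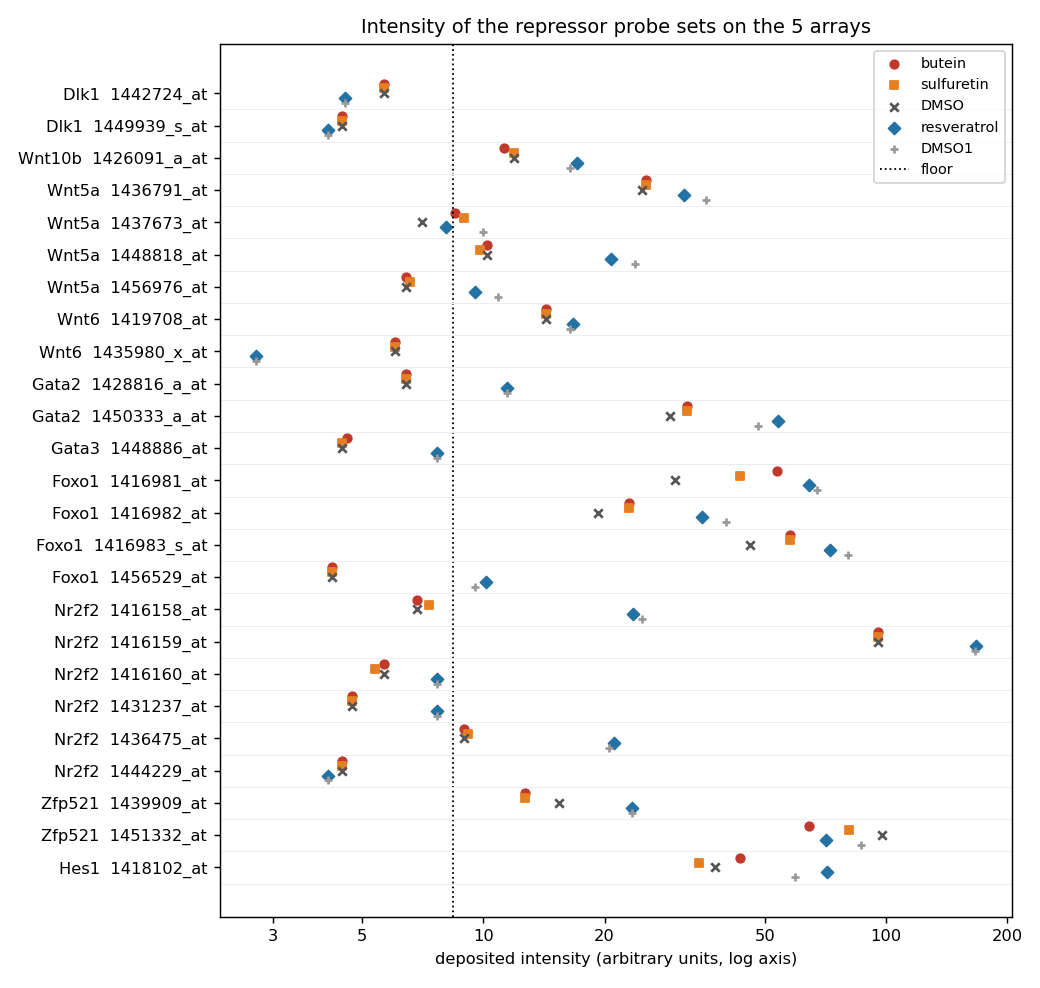
Deposited intensity (log axis) of all 25 probe sets of the 10 genes on the 5 arrays, with the floor of 8.39 as a dotted line. Each point is 1 array; the resveratrol and DMSO1 points lie to the right of the butein, sulfuretin and DMSO points for most probe sets. Within a set the points nearly coincide for most probe sets and spread most for Foxo1 on 1416981_at and for Zfp521 on 1451332_at.

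Foxo1 had the largest difference, so the 250 bases before its start in the RefSeq promoter table (build GRCm38.p6, plus strand, chr3:52268087-52268336) are shown here, with CCAAT boxes and GC boxes in capitals.
Foxo1: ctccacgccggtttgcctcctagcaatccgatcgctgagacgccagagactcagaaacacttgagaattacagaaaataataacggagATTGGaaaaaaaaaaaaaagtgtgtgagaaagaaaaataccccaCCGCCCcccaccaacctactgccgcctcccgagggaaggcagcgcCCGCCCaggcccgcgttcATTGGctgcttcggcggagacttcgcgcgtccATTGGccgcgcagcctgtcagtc
The search covered both strands, and all matches in this window are on the opposite strand, where CCAAT reads ATTGG and GGGCGG reads CCGCCC. The letters CCAAT are in 33.8% and GGGCGG in 32.7% of all 32851 windows of this length, and both were added after the window had been looked at. The window holds none of TGGGAA (the core of RBPJ sites, in 21.6% of windows), CACNAG (the N-box bound by Hes factors, 36.7%), TGACNNNGC (the core of antioxidant response elements, 10.2%), GTAAACA (a forkhead site, 3.17%), CTTTGA (the core of TCF/LEF sites, 13.8%) or TGACG (the first part of cAMP response elements, 17.8%). Promoters of 7 of the 10 genes matched the table, those of Dlk1, Foxo1, Gata2, Gata3, Nr2f2, Wnt10b and Wnt6. Among them CACNAG was in Gata2 and Gata3, GTAAACA in Dlk1, CTTTGA in Nr2f2, and TGACG in Dlk1 and Wnt10b. A match is a description of the letters and not a measured site.

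Over the 18 counted probe sets, 0 passed 2-fold with butein, with 2.21% of the 26028 probe sets at the floor past it. With sulfuretin 0 of 18 passed, against a background of 0.242%, and with resveratrol 0 of 18, against 0.111%. At backgrounds this low a count of 0 in 18 is near what the whole array gives. A 1.5-fold criterion took 2 of the 18 with butein (background 7.23%), 0 with sulfuretin (background 1.78%) and 0 with resveratrol (background 0.638%). The 2 past 1.5-fold with butein were the Foxo1 and Zfp521 probe sets named above. Of the 18, 4 were under the floor on the butein and DMSO arrays and were counted only through the resveratrol or DMSO1 array, namely 1456529_at of Foxo1, 1428816_a_at of Gata2, 1456976_at of Wnt5a and 1416158_at of Nr2f2. All 4 were among the probe sets equal with butein. The median log2 difference of the 18 was 0 with butein, 0.02 with sulfuretin and -0.03 with resveratrol, and over all probe sets at the floor it was 0 in each comparison. With butein 7 were higher, 3 lower and 8 equal (log2 values within 1e-06). With sulfuretin 9 were higher, 4 lower and 5 equal, and with resveratrol 7 were higher, 9 lower and 2 equal. Exactly equal values made up 34.6%, 36.6% and 36.9% of all probe sets at the floor with butein, sulfuretin and resveratrol. With the floor asked of the compared arrays alone, a setting chosen after the values were seen, 14 probe sets remained with butein, 14 with sulfuretin and 18 with resveratrol. Again 0 passed 2-fold, against backgrounds of 2.85%, 0.313% and 0.114%. With butein 7 of the 14 were then higher, 3 lower and 4 equal, and with sulfuretin 7 were higher, 4 lower and 3 equal, with a median of 0.02 for each.

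**Figure D2:**
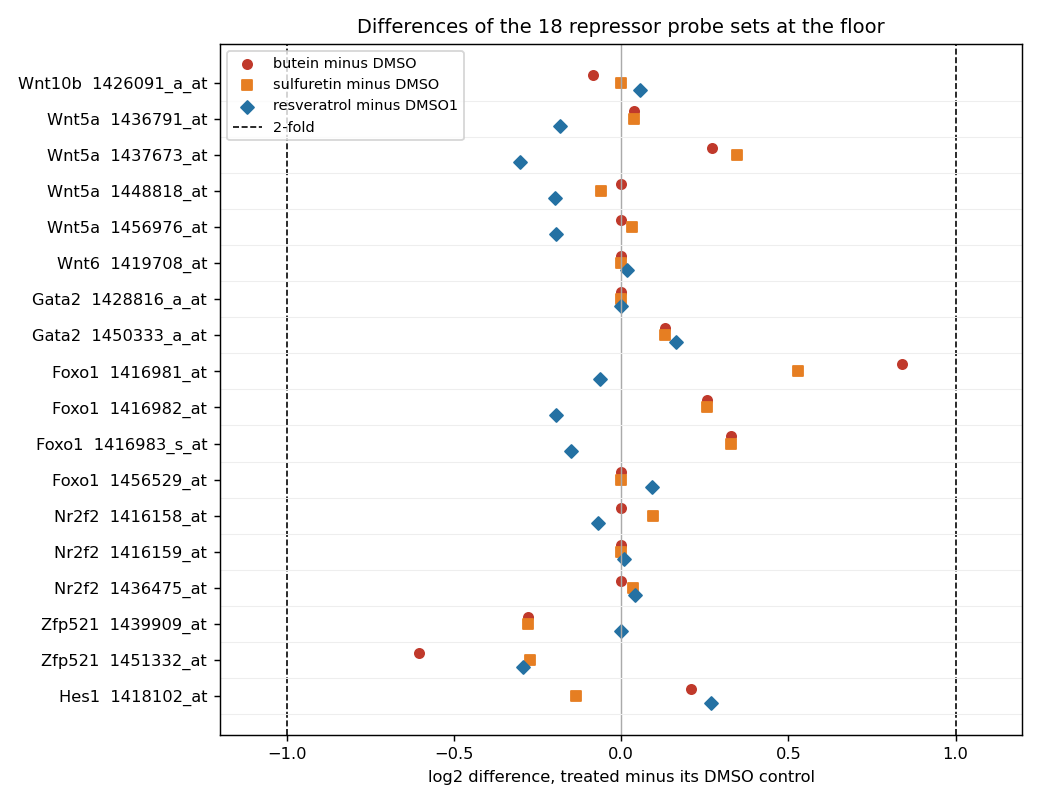
Log2 difference of each of the 18 counted probe sets with butein or sulfuretin against DMSO and with resveratrol against DMSO1, 1 point per comparison, with dashed lines at 2-fold. No point reaches a dashed line, and the points farthest from 0 are Foxo1 at 0.84 and Zfp521 at -0.60, both with butein.

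**Figure D3:**
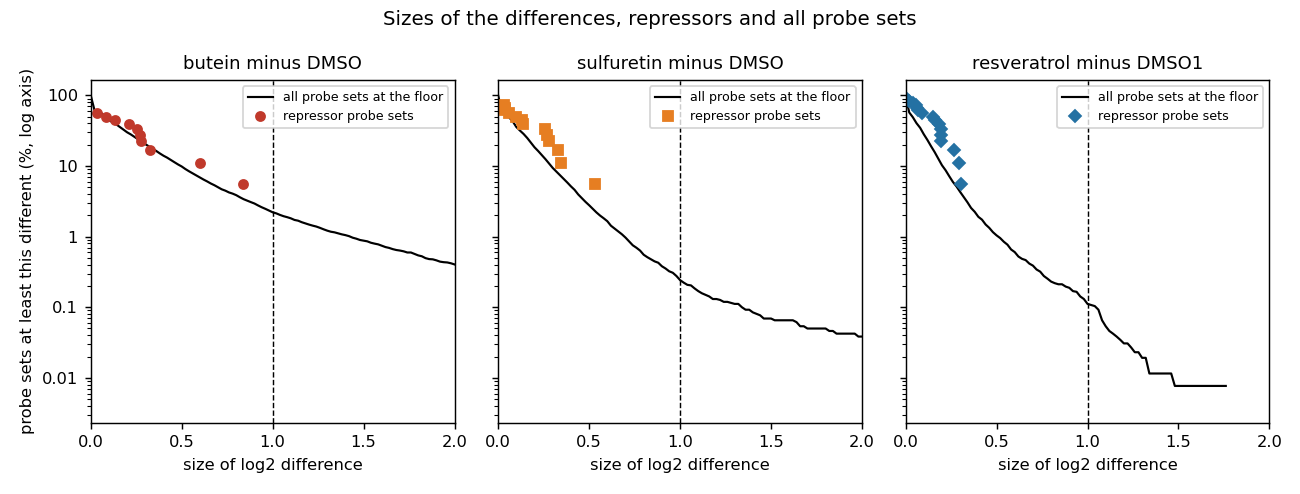
Share of probe sets (log axis) whose log2 difference is at least a given size, for all 26028 probe sets at the floor (line) and for the repressor probe sets that were not exactly equal (points, as a share of 18). The repressor points end at 0.84 with butein, 0.53 with sulfuretin and 0.30 with resveratrol, left of the dashed line at 2-fold in each panel.

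Among the ligands, Dlk1 stayed under the floor on all 5 arrays. Its probe set 1442724_at read 5.65 with butein, 5.65 with sulfuretin and 5.65 in DMSO, and 4.54 with resveratrol and 4.54 in DMSO1. Its probe set 1449939_s_at read 4.45 on the butein, sulfuretin and DMSO arrays and 4.10 on the resveratrol and DMSO1 arrays. The value 4.45 of 1449939_s_at is shared by 1423 probe sets on the DMSO array and 4.10 by 981 probe sets on the DMSO1 array. Dlk1 thus sat in the crowd of the dimmest signals. It did not rise to the floor with any compound, and a fall, or a rise that stayed under the floor, was not detectable.

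Wnt10b, a Wnt ligand that blocks adipocyte differentiation, has 1 probe set. It read 11.3 with butein, 11.9 with sulfuretin and 11.9 in DMSO, and 17.1 with resveratrol and 16.4 in DMSO1. The log2 differences were -0.08, 0 and 0.06, so Wnt10b was close to its control with each compound. Wnt6 was similar on probe set 1419708_at, at 14.3 on the butein, sulfuretin and DMSO arrays, 16.7 with resveratrol and 16.4 in DMSO1. Its other probe set, 1435980_x_at, was under the floor throughout, at 6.02 on the butein, sulfuretin and DMSO arrays and 2.72 with resveratrol and in DMSO1, and its suffix marks probes that may bind other transcripts too.

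Wnt5a, the ligand that signals mainly outside the beta-catenin route, was lower with resveratrol than in DMSO1 on all 4 of its probe sets. On the brightest, 1436791_at, it read 25.4 with butein, 25.4 with sulfuretin and 24.7 in DMSO, and 31.5 with resveratrol and 35.8 in DMSO1. The resveratrol difference was -0.18 there, -0.30 on 1437673_at, where the resveratrol value of 8.08 is under the floor, -0.20 on 1448818_at and -0.19 on 1456976_at. With 16 added to each intensity the difference on 1437673_at was -0.11. The direction depended on the control. With the arrays quantile normalized together and DMSO as control, resveratrol differed by -0.53 on 1436791_at and -0.35 on 1437673_at. It differed by 0.13 on 1448818_at and 0 on 1456976_at. Of all probe sets at the floor, 6.74% were at least as low as 1436791_at with resveratrol and 2.40% at least as low as 1437673_at. The probe sets measure the same RNA on the same arrays and are no replicates. With butein 2 of the 4 probe sets were higher, by 0.04 and 0.27, and 2 had values exactly equal to DMSO, while with sulfuretin 3 were higher and 1 lower, from -0.06 to 0.35. The 0.27 and 0.35 came from 1437673_at, at 8.51 with butein and 8.95 with sulfuretin against 7.05 in DMSO, where the DMSO value is under the floor.

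The GATA factors showed little. Gata2 on probe set 1450333_a_at read 32.0 with butein, 32.0 with sulfuretin and 29.2 in DMSO, and 53.9 with resveratrol and 48.1 in DMSO1. It was thus slightly above its control with every compound, by 0.13, 0.13 and 0.16 on the log2 scale, and the second probe set of Gata2, 1428816_a_at, was equal to its control in every comparison, at 6.42 on the butein, sulfuretin and DMSO arrays and 11.5 on the resveratrol and DMSO1 arrays. Gata3, with 1 probe set, was under the floor on all 5 arrays, with a highest value of 7.65 in the resveratrol and DMSO1 cultures.

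Foxo1 was higher with butein and with sulfuretin on 3 of its 4 probe sets and lower with resveratrol on the same 3. On 1416981_at it read 53.6 with butein, 43.3 with sulfuretin and 30.0 in DMSO, and 64.5 with resveratrol and 67.4 in DMSO1. On 1416982_at it read 23.1 with butein, 23.1 with sulfuretin and 19.3 in DMSO, and 35.0 with resveratrol and 40.1 in DMSO1. On 1416983_s_at it read 57.6 with butein, 57.6 with sulfuretin and 45.9 in DMSO, and 72.8 with resveratrol and 80.8 in DMSO1. The DMSO array was the lowest of its set on these 3 probe sets, and the DMSO1 array the higher of its pair. The butein differences were 0.84, 0.26 and 0.33 in that order of probe sets, so the probe sets shared the direction and differed in size, with 1416981_at ahead of the other 2. The sulfuretin differences were 0.53, 0.26 and 0.33, and those of resveratrol -0.06, -0.20 and -0.15. Among all probe sets at the floor, 2.51% were at least as much higher with butein as 1416981_at and 1.53% with sulfuretin. The fourth probe set, 1456529_at, read 4.21 on the butein, sulfuretin and DMSO arrays, a value that 1530 probe sets share in DMSO, and 10.1 with resveratrol and 9.50 in DMSO1.

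Nr2f2, which has 6 probe sets, was near its control throughout. The brightest, 1416159_at, read 95.6 with butein, 95.6 with sulfuretin and 95.6 in DMSO, and 167 with resveratrol and 166 in DMSO1. The other counted ones, 1416158_at and 1436475_at, had differences between -0.07 and 0.10 over the 3 compounds. Probe set 1416158_at was under the floor with butein (6.85), with sulfuretin (7.32) and in DMSO (6.85). It was counted only through 23.6 with resveratrol and 24.8 in DMSO1. A fall with butein or sulfuretin, or a rise that stayed under the floor, was not detectable there. The remaining 3 probe sets, 1416160_at, 1431237_at and 1444229_at, were under the floor on all arrays, with a highest value of 7.65. Probe set 1416158_at was the repressor probe set that differed most between the solvent arrays, at 24.8 in DMSO1 and 6.85 in DMSO.

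Zfp521 was lower with butein and with sulfuretin on both of its probe sets. On 1451332_at it read 64.3 with butein, 81.0 with sulfuretin and 97.7 in DMSO, and 70.8 with resveratrol and 86.8 in DMSO1. On 1439909_at it read 12.7 with butein, 12.7 with sulfuretin and 15.4 in DMSO, and 23.4 with resveratrol and 23.4 in DMSO1. On the brighter probe set the control was thus the highest array of each set, with differences of -0.60, -0.27 and -0.29 for butein, sulfuretin and resveratrol. On the dimmer one they were -0.28, -0.28 and 0. Of all probe sets at the floor, 2.44% were at least as low as 1451332_at with butein, 4.97% with sulfuretin and 2.61% with resveratrol.

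Hes1, the Notch effector, has 1 probe set and lay above its control with butein and resveratrol and below it with sulfuretin. It read 43.5 with butein, 34.3 with sulfuretin and 37.6 in DMSO, and 71.5 with resveratrol and 59.4 in DMSO1. The differences were 0.21 with butein, -0.13 with sulfuretin and 0.27 with resveratrol. Of all probe sets at the floor, 2.42% were at least as much higher with resveratrol and 14.2% with butein.

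Butein is a chalcone and sulfuretin an aurone in which the bridge of the chalcone is closed into a ring. Set against butein directly, sulfuretin moved 0 of the 18 probe sets past 2-fold, against a background of 0.991%, and 0 past 1.5-fold, against 3.67%. The largest differences of sulfuretin minus butein were in Hes1 (-0.34), in Zfp521 on 1451332_at (0.33) and in Foxo1 on 1416981_at (-0.31), and 9 of the 18 were exactly equal. Each compound has 1 array, so an interval is possible only with the spread borrowed from the DMSO arrays. These lie in different sets, whereas butein and sulfuretin lie in the same set. The intervals therefore do not measure the spread within that set. In limma on jointly quantile normalized values, with DMSO and DMSO1 as replicates, sulfuretin minus butein was -0.31 for Hes1 (95% interval -1.41 to 0.78), 0.33 for Zfp521 on 1451332_at (-1.32 to 1.98) and -0.28 for Foxo1 on 1416981_at (-1.57 to 1.02). The adjusted p from limma was 1 for each of the 18 over 26028 probe sets. Doses are not stated, and intervals this wide do not show that the compounds act alike. Resveratrol, a stilbene, was measured against another control in the other set of arrays, and its values are given beside those of butein and sulfuretin without a comparison.

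The solvent arrays give the only spread between untreated cultures, although they also lie in different sets. After the 5 arrays were quantile normalized together, the median size of the DMSO1 minus DMSO difference over the 18 probe sets was 0.32, compared with median treatment differences of 0.06 with butein, 0.07 with sulfuretin and 0.11 with resveratrol. The treatment difference was larger than the solvent difference on 5 of 18 probe sets with butein, 5 with sulfuretin and 4 with resveratrol, where 23.1%, 14.9% and 11.2% of all probe sets at the floor did so. With butein and with sulfuretin these were 1437673_at of Wnt5a, the 3 Foxo1 probe sets and Hes1. For Foxo1 on 1416981_at the sizes were 0.74 with butein, 0.46 with sulfuretin and 0.42 between the solvent arrays. For Zfp521 on 1451332_at they were 0.60 with butein, 0.27 with sulfuretin, 0.32 with resveratrol and 0.75 between the solvent arrays. On this scale no compound moved this probe set by more than the controls differed. Both orders turned on the deposited scale, where the 2 solvent arrays lie on different levels. There DMSO1 minus DMSO was -0.17 for this probe set, against -0.60 with butein, -0.27 with sulfuretin and -0.29 with resveratrol. For Foxo1 on 1416981_at it was 1.17, against 0.84 with butein and 0.53 with sulfuretin. Both solvent arrays were also taken as replicates in limma on these values, with 1 residual degree of freedom, which assumes the same spread for each treated array. It called 0 of the 18 probe sets with any compound at an adjusted p of 0.05, and 0 of 18 had an unadjusted p under 0.05. The same fit called 0 of all 26028 probe sets with each compound, and 1.5%, 0.15% and 0.0692% had an unadjusted p under 0.05 with butein, sulfuretin and resveratrol, so its count says nothing particular about the repressors.

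**Figure D4:**
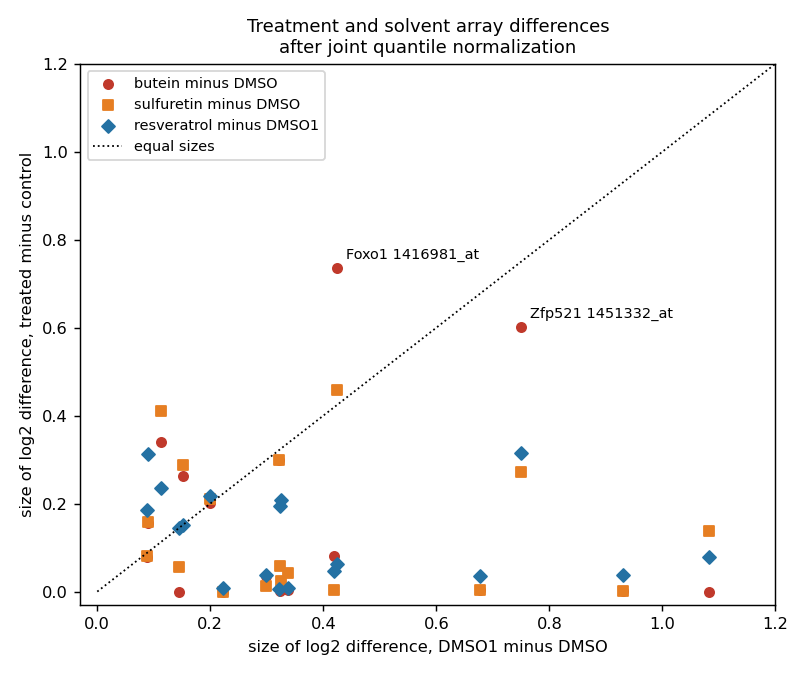
Size of the log2 difference with each compound (vertical axis) against the size of the difference between DMSO1 and DMSO (horizontal axis) for the 18 counted probe sets after joint quantile normalization, with a dotted line of equal sizes. Foxo1 on 1416981_at lies above the line with butein (0.74 against 0.42) and Zfp521 on 1451332_at below it (0.60 against 0.75).

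The genes around the repressors were followed in 5 lists, each gene by its brightest probe set at the floor. All 5 lists were chosen with earlier results of these data known. In the Wnt pathway list, which holds other ligands, receptors, the beta-catenin destruction complex, TCF/LEF factors and secreted inhibitors, 0 of 26 counted genes passed 2-fold in either direction with any compound. The background for genes was 2.03% higher and 0.297% lower with butein, 0.193% and 0.0482% with sulfuretin, and 0.0804% and 0.0643% with resveratrol. The list's median was 0 with each compound, as was the median over all 12439 counted genes. Past 1.5-fold with butein were 1 gene higher and 3 lower of the 26 (background 5.01% and 2.47%), and 0 with sulfuretin (background 1.36% higher and 0.378% lower) or resveratrol (background 0.338% and 0.362%). These were looked up after the values were seen and are the Frizzled receptor genes Fzd7, at 246 with butein against 137 in DMSO, and Fzd1, at 183 with butein against 296 in DMSO, with the secreted inhibitor genes Sfrp2, at 41.5 with butein against 65.0 in DMSO, and Sfrp1, at 72.5 with butein against 110 in DMSO. The Notch pathway list had 0 of 17 counted genes past 2-fold with any compound and a median of 0 with each, and 1 past 1.5-fold, the protease gene Adam17, at 282 with butein against 185 in DMSO.

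Among 22 counted partners and paralogues of the repressors 0 passed 2-fold with sulfuretin or resveratrol. With butein 1 was past 2-fold higher and none lower (background 2.03% higher and 0.297% lower). It was Tle1, a Groucho family corepressor that Hes proteins recruit, at 108 with butein and 51.6 with sulfuretin against 42.1 in DMSO, and at 71.4 both with resveratrol and in DMSO1. The 1.5-fold criterion added 1 lower gene with butein (background 2.47%) and 0 with the other compounds. The added gene was the deacetylase gene Hdac1, at 83.1 with butein against 136 in DMSO. Medians were 0 with butein, 0 with sulfuretin and 0.02 with resveratrol. Of 18 known FoxO target genes 0 passed 2-fold with sulfuretin or resveratrol. Past it with butein were 2 higher and none lower (background 2.03% and 0.297%). They were Trib1, a pseudokinase gene, at 87.1 with butein and 19.3 with sulfuretin against 17.0 in DMSO, and the stress gene Gadd45a, at 284 with butein and 75.3 with sulfuretin against 55.6 in DMSO. At 1.5-fold there were 4 higher and 3 lower of the 18 with butein (background 5.01% and 2.47%). Sulfuretin had 0 (background 1.36% and 0.378%), and resveratrol had 2 higher and 1 lower (background 0.338% and 0.362%). Those with resveratrol were Txnip, at 983 with resveratrol against 577 in DMSO1, Pdk4, at 268 with resveratrol against 160.4 in DMSO1, and Klf15, at 27.9 with resveratrol against 45.3 in DMSO1. Over the whole list with butein 9 of the 18 were lower and 8 higher, with a median of -0.06, while sulfuretin had 11 higher and 7 lower (median 0.09) and resveratrol 7 higher and 10 lower (median -0.02). FoxO factors are controlled largely through phosphorylation and their place in the cell, which these arrays do not measure.

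In the list of other anti-adipogenic regulators 4 of 20 counted genes were past 2-fold higher with butein and none lower (background 2.03% and 0.297%). With sulfuretin or resveratrol 0 passed. This list was chosen with earlier results of these data known, so its counts only describe it. At 1.5-fold there were 4 higher and 2 lower with butein (background 5.01% and 2.47%). Sulfuretin had 2 higher and 1 lower (background 1.36% and 0.378%) and resveratrol 0 (background 0.338% and 0.362%). The lower one with sulfuretin was Zeb2, a zinc finger repressor gene, at 43.7 with butein and 48.7 with sulfuretin against 81.0 in DMSO. Ddit3, which encodes the C/EBP partner CHOP, read 2693 with butein and 406 with sulfuretin against 408 in DMSO. The pseudokinase gene Trib3 read 313 with butein and 134 with sulfuretin against 79.0 in DMSO. The clock repressor gene Bhlhe40 read 281 with butein and 123 with sulfuretin against 84.3 in DMSO, and the deacetylase gene Sirt1 read 123 with butein and 61.6 with sulfuretin against 40.3 in DMSO. Sulfuretin was thus above DMSO for Trib3, Bhlhe40 and Sirt1 but not for Ddit3, and under 2-fold for each. Ddit3 read 758 with resveratrol and 564 in DMSO1, Trib3 145 with resveratrol and 109 in DMSO1, Bhlhe40 122 with resveratrol and 116 in DMSO1, and Sirt1 93.4 with resveratrol and 69.9 in DMSO1. The list's median was 0.01 with butein, 0 with sulfuretin and 0.04 with resveratrol, so its middle stayed near that of all counted genes.

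**Figure D5:**
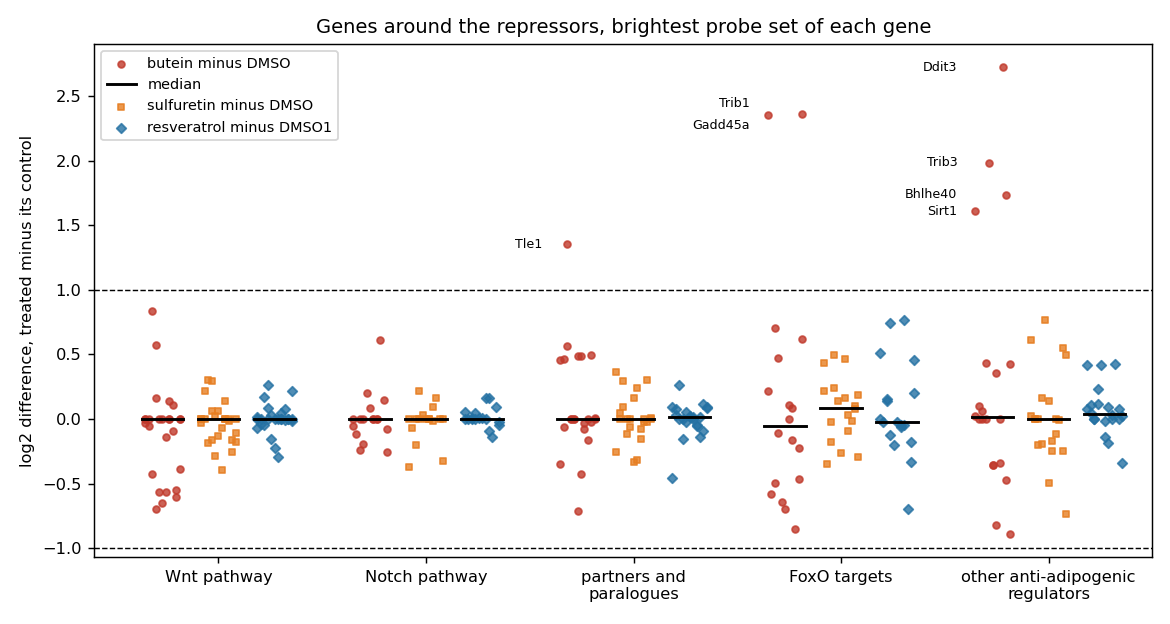
Log2 difference of each counted gene of 5 lists with butein or sulfuretin against DMSO and with resveratrol against DMSO1, with the list median as a black bar and dashed lines at 2-fold. The 7 points beyond a dashed line are all with butein and are labelled; the medians lie between -0.06 and 0.09.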

How the data were processed

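Total RNA (500 ng per array, per the labels) of 5 cultures was measured on Affymetrix arrays. Per the submitters' processing notes the authors used RMA; the version and output scale of RMA were not stated. Values as deposited by the authors run from 1.40 to 9340, so they were read as linear intensities. Log2 of each intensity was taken with no pseudocount, and each treated array was set against its control. Probe sets naming 1 gene (34945 of 45037) were used by platform symbol, 932 name several and 9160 are unnamed there. Genes of the lists were also matched by gene ID to RefSeq symbols of GRCm38.p6. With 1 array per group the call was a difference of at least 2-fold, among the 26028 probe sets at the floor. No depth applies to arrays, and the number of arrays limits the precision. The members and lists were chosen with earlier results of these data known. Named genes were all 10 members, up to 4 genes past 2-fold per list, and Pparg, Cebpa, Adipoq and Fabp4. Genes named outside this rule, after their values were seen, were Fzd7, Fzd1, Sfrp2, Sfrp1, Adam17, Hdac1, Txnip, Pdk4, Klf15, Zeb2, Col3a1, Fn1, Lum and Dcn. Protein sequences were not used here. The call rule was tested on simulated data, with changes well past the threshold only. Tools were Python 3.11.15, numpy 2.4.6, pandas 2.3.3, matplotlib 3.10.9, R 4.3.3 and limma 3.58.1, the last for the quantile normalization and the test with both DMSO arrays as replicates. Alternatives were a 1.5-fold criterion, no floor, the brightest probe set per gene, joint quantile normalization, other controls, 16 added to each intensity and, chosen after the data were seen, the floor on the compared arrays alone.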

Additional observations from a re-analysis of the deposited data

How the results depend on the processing

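The count of repressor probe sets past 2-fold was 0 with each compound, and also for sulfuretin against butein, with no floor, with the brightest probe set per gene, after joint quantile normalization, with 16 added to each intensity and with the floor on the compared arrays alone, the last chosen after seeing the data. In limma 0 of all 26028 probe sets were called, so its count bears on no stability. The mean of both DMSO arrays as control also gave 0 with each compound. The 1.5-fold criterion took 2 with butein and 0 in the other comparisons. Exchanging the DMSO arrays, which lie on different scales, gave 4 lower with butein, 4 lower with sulfuretin and 5 higher with resveratrol, with medians of -0.68, -0.76 and 0.82, while the median of all probe sets at the floor moved to -0.65, -0.62 and 0.63. Relative to that shift, 1 repressor probe set was past 2-fold lower with butein, 1 lower with sulfuretin, and 1 higher and 1 lower with resveratrol. With the mean of both DMSO arrays the medians were -0.35, -0.31 and 0.37, beside -0.34, -0.31 and 0.32 over all probe sets at the floor. Joint quantile normalization together with the other control gave 1 past 2-fold with butein, Nr2f2 on 1416158_at (-1.08), 0 with sulfuretin, and 2 with resveratrol, Nr2f2 on 1416158_at (1.003) and Zfp521 on 1451332_at (-1.07). In that setting Foxo1 on 1416981_at was 0.31 with butein and 0.03 with sulfuretin, and Zfp521 on 1451332_at 0.15 with butein and 0.48 with sulfuretin. With the mean of both DMSO arrays Foxo1 on 1416981_at was 0.25 with butein and -0.05 with sulfuretin. With joint quantile normalization alone the resveratrol differences of Zfp521 on 1451332_at (-0.32), Hes1 (0.31) and Wnt5a on 1437673_at (-0.24) differ in order from the deposited scale. The cause was not tested. No paired analysis was possible because each group has 1 array and the labels give no replicate numbers. Signals under the floor, as for Dlk1 and Gata3, limit what these arrays can show.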
